A study of Mus musculus with 6 samples.

Results

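The genes described here are 36 markers of endothelial cells, the cells that line blood and lymphatic vessels. They were taken by symbol from a list of junction proteins, receptors, secreted proteins and transcription factors, and each was found on the arrays through the RefSeq accession of its probe. All 36 had a probe, 45 probes in all among 55681 gene probes. Of these genes 30 passed a filter on dim signals and were tested, among 22499 genes tested on the arrays. The rule used gene symbols and no measured value, but the list was chosen with earlier results of these data known.

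RNA came from live CD45- cells sorted from mammary tumors, which is the part of a tumor that lacks the leukocyte protein CD45. It holds tumor cells, fibroblasts, mural cells and endothelial cells together. The tumors grew after late carcinoma cells of MMTV-PyMT mice were placed orthotopically in C57BL/6 hosts of matching strain. In MMTV-PyMT mice the polyomavirus middle T oncogene is driven by a mammary tumor virus promoter, and both groups carried it. The groups were RANK-/- and RANK+/+ tumor cells, strain C57BL/6 per the labels, with 3 RNAs each, and the labels give no age. Tnfrsf11a encodes RANK, a receptor of the TNF family that activates NF-kB. Each array took a RANK-/- RNA in 1 dye and a RANK+/+ RNA in the other, and each of the 3 pairs of RNAs was hybridized to 2 technical arrays, A and B. Pair 1 had the RANK-/- RNA in Cy5 and pairs 2 and 3 had it in Cy3, so that a dye effect and the difference between pair 1 and the others cannot be told apart. The design text calls the RNAs biological replicates, but whether they came from different tumors is not given in the sources used here, so that the spread between pairs may be partly technical.

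The labels were checked first with Tnfrsf11a. Its probe gave log2 ratios of 2.03, 1.15 and 1.76 in pairs 1, 2 and 3, so that the RNA labeled RANK-/- was the higher of each pair. This goes against the label of a knockout. Which part of the gene was deleted, and whether the probe lies in it, is not given in the sources used here. Directions below are therefore those of the channel labeled RANK-/- over the channel labeled RANK+/+. Between 51.9% and 58.8% of probes were well above background in a channel, and no spot was saturated (0). Ratios of different pairs were weakly related across all genes tested, with Pearson correlations of -0.28 (pairs 1 and 2), 0.18 (pairs 1 and 3) and -0.08 (pairs 2 and 3), which describe genes and not replicates.

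Endothelial cells are held together by VE-cadherin, PECAM1 and claudin-5, and they respond to VEGF through KDR and FLT1 and to angiopoietins through TEK. Sprouting vessels are led by tip cells, which are known for Dll4, Esm1 and Apln, and SOX and ETS transcription factors maintain endothelial identity. In transplanted tumors the vessels are generally supplied by the host.

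Promoters are shown for 4 members. They are the genes whose ratio had the same sign in every pair (Cldn5 and Esm1) and a VEGF and an angiopoietin family receptor (Kdr and Tie1). Each line gives the 250 bases before the gene start, 5′ to 3′ in the direction of transcription, from RefSeq on GRCm38.p6, and capitals mark GGAA or its reverse complement TTCC, the core letters that ETS factors read.

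Cldn5 promoter, chr16:18776597-18776846, plus strand: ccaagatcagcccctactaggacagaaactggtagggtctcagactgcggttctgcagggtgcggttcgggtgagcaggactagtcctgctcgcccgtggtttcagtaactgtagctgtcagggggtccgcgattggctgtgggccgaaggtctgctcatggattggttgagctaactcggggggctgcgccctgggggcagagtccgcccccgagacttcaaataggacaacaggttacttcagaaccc
Esm1 promoter, chr13:113209409-113209658, plus strand: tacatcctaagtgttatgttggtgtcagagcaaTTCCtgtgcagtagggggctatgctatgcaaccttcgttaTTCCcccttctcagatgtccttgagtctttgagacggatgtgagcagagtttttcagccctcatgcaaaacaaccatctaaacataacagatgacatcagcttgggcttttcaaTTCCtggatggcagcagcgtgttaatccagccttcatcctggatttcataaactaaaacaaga
Kdr promoter, chr5:75978456-75978705, minus strand: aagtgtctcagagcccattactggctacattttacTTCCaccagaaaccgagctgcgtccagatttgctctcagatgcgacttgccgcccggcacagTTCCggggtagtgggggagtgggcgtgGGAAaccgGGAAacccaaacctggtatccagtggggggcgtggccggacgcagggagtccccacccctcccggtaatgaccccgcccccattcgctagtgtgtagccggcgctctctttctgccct
Tie1 promoter, chr4:118489850-118490099, minus strand: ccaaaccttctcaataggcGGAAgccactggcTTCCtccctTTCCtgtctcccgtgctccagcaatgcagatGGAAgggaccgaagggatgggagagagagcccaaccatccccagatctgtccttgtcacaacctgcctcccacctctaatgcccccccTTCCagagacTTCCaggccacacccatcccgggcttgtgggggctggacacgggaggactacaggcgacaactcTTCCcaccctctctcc

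The Tie1 window held 7 such cores, the most of any member window, the Kdr window 4, the Esm1 window 3 and the Cldn5 window 0. The window of Tek, which is not shown, held 2. The RefSeq table held 20 of the 36 members, in 25 windows because of alternative starts, and 23 of the 25 windows (92%) had at least 1 core on either strand. Over all 32851 windows of the table the share was 93.4%, and the median number of cores was 3 in both sets. A match of 4 letters is a description of the sequence, and the lack of a match in the Cldn5 window says only that these letters are not in these bases.

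Endothelial RNA was detected in every sample. Pecam1, the adhesion protein also named CD31, had a net signal (spot median minus local background, in scanner units) of 68, 54.6 and 66.5 in the RNAs labeled RANK-/- of pairs 1, 2 and 3, and of 52.1, 108 and 85.4 in those labeled RANK+/+. Cdh5, which encodes VE-cadherin, had net signals of 161, 89.8 and 160 against 76.5, 329 and 173. Both passed the scanner's detection call in every channel of the 6 arrays. Net signals are not normalized for dye, and the RNA labeled RANK-/- was in Cy5 in pair 1 and in Cy3 in pairs 2 and 3. They therefore show detection and not direction. In pair 3 both genes had the lower net signal in the RNA labeled RANK-/-, but normalized log2 ratios of 0.29 (Pecam1) and 0.56 (Cdh5). Signals were low: the mean net signal over the 6 RNAs was under 100 for 11 of the 30 tested members, and for Tek, Sox17, Fli1 and Dll4 it was under 50, the offset added to every signal before ratios were taken. For such dim genes the offset pulls ratios toward 0. At offset 0 the medians of the members were -0.04, -0.31 and 0.80 in pairs 1, 2 and 3, farther from 0 than the values given below, and the same numbers of members (12, 10 and 27) were above 0.

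The other 6 members had no probe that passed the filter. These were Flt4 (VEGFR-3) and the lymphatic genes Lyve1 and Prox1, the ETS factor gene Erg, the surface lectin gene Clec14a and the adhesion gene Sele, whose product E-selectin is induced on activated endothelium. Their probes were well above background on 0 to 3 of the 6 arrays in the channel of either genotype. Flt4, Lyve1 and Prox1, the genes most closely tied to lymphatic vessels, were thus all not well above background on most arrays, and no ratio is given for them.

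None of the 30 tested members passed limma at an adjusted p of 0.05 (0 members, lowest adjusted p of 1.00). The same fit called 0 genes of the 22499 (0%), and a rank product test called 21 genes but 0 members. At an unadjusted p under 0.05 limma gave 1 member higher, Cldn5, beside 1.66% of all genes, and 1 member lower, Esm1, beside 1.22%. The same 2 members were those with an equal sign in all pairs: 1 of 30 was higher in all 3 pairs (9.95% of all genes) and 1 of 30 lower (9.65%). Both same-sign counts are a smaller share than that of all genes. In a bulk fraction, fewer endothelial cells and less RNA per endothelial cell cannot be told apart.

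Cldn5, the claudin of endothelial tight junctions, had normalized log2 levels of 7.60, 7.61 and 7.80 in the RNAs labeled RANK-/-, against 6.88, 7.47 and 6.99 in those labeled RANK+/+. The 3 levels labeled RANK-/- lay close together and above all 3 others, so the groups did not overlap, with a narrow gap to the RANK+/+ RNA of pair 2. The ratios were 0.72, 0.14 and 0.81, with a mean of 0.55 ± 0.36 (SD, n = 3 pairs) and a 95% interval of 0.03 to 1.08 from limma, not adjusted for the number of genes. Levels of the groups did not overlap in the higher direction for 3.67% of all genes and for 1 of 30 members.

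Esm1, which encodes the secreted proteoglycan endocan, had normalized log2 levels of 7.36, 8.13 and 8.22 in the RNAs labeled RANK-/-, against 8.67, 8.85 and 8.59 in those labeled RANK+/+. All 3 levels labeled RANK-/- lay below the others, and that of pair 1 was the lowest by a wide margin. The ratios were -1.31, -0.72 and -0.37, with a mean of -0.80 ± 0.48 (SD, n = 3 pairs) and a 95% interval of -1.42 to -0.18 from limma, again not adjusted. Levels did not overlap in the lower direction for 3.8% of all genes and for 1 of 30 members.

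**Figure D1:**
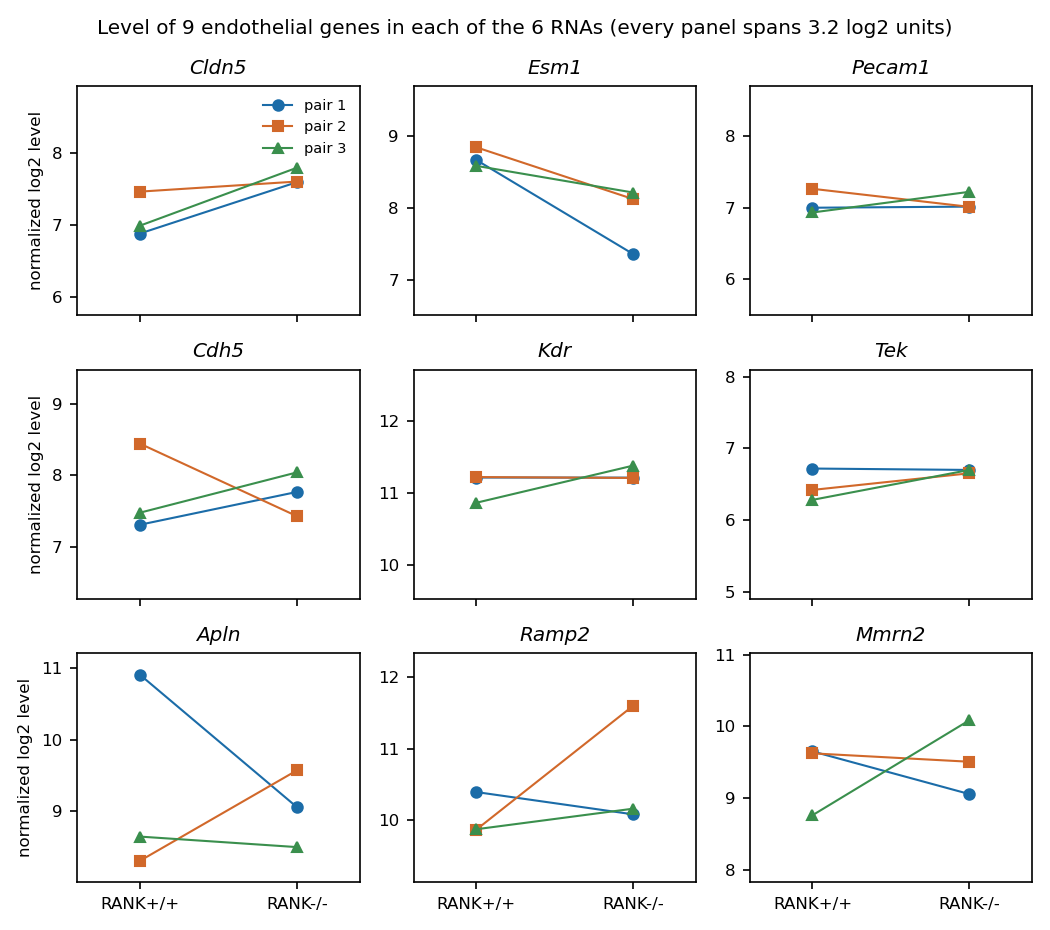
Normalized log2 level (vertical axis) of 9 endothelial genes in the RNAs labeled RANK+/+ and RANK-/- (horizontal axis), each point being the mean of arrays A and B and each line joining the RNAs of a pair. The lines of Cldn5 all rise and those of Esm1 all fall, while each other gene has lines in both directions.

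The ratios of the members depended on the pair. In pair 3 the log2 ratio was above 0 for 27 of the 30 members (90%), with a median of 0.53, where 50.1% of all genes were above 0. In pair 1 it was above 0 for 12 members (40%), with a median of -0.02, beside 52.0% of all genes. In pair 2 it was above 0 for 10 members (33.3%), with a median of -0.14, beside 48.3% of all genes. All genes had medians of 0.02, -0.01 and 0.00 in the 3 pairs. The median over members of the mean ratio was 0.10, beside 0.00 for all genes.

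The members that were not above 0 in pair 3 were Ets1, Esm1 and Apln. The sign pattern of plus, minus and plus in pairs 1, 2 and 3 was the most frequent, in 10 members, and minus, minus and plus came next, in 9. Members varied over pairs with a median SD of 0.56 (log2), beside 0.33 for all genes tested. The lists of other endothelial, angiogenic and cell marker genes described below also had median SDs above 0.33. These ran from 0.36 for leukocyte markers to 1.48 for luminal epithelial markers. The median absolute difference between technical arrays was 0.065 for members, with a highest of 0.23, and 0.067 for all genes.

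At least a 2-fold difference was reached in some pair by 11 of the 30 members, beside 15% of all genes. In pair 3, 5 members were at least 2-fold higher (Cd34, Mmrn2, Ptprb, Vwf and Robo4), beside 4.91% of all genes, and 0 were 2-fold lower, beside 3.01%. In pair 2, 2 members were 2-fold higher (Ramp2 and Apln; 2.45% of all genes) and 1 was 2-fold lower (Cdh5; 2.37%). In pair 1, 0 were 2-fold higher (3.66% of all genes) and 4 were 2-fold lower (Apln, Esm1, Egfl7 and Sox7; 2.84%). No member was 2-fold apart in the same direction in more than 1 pair.

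**Figure D2:**
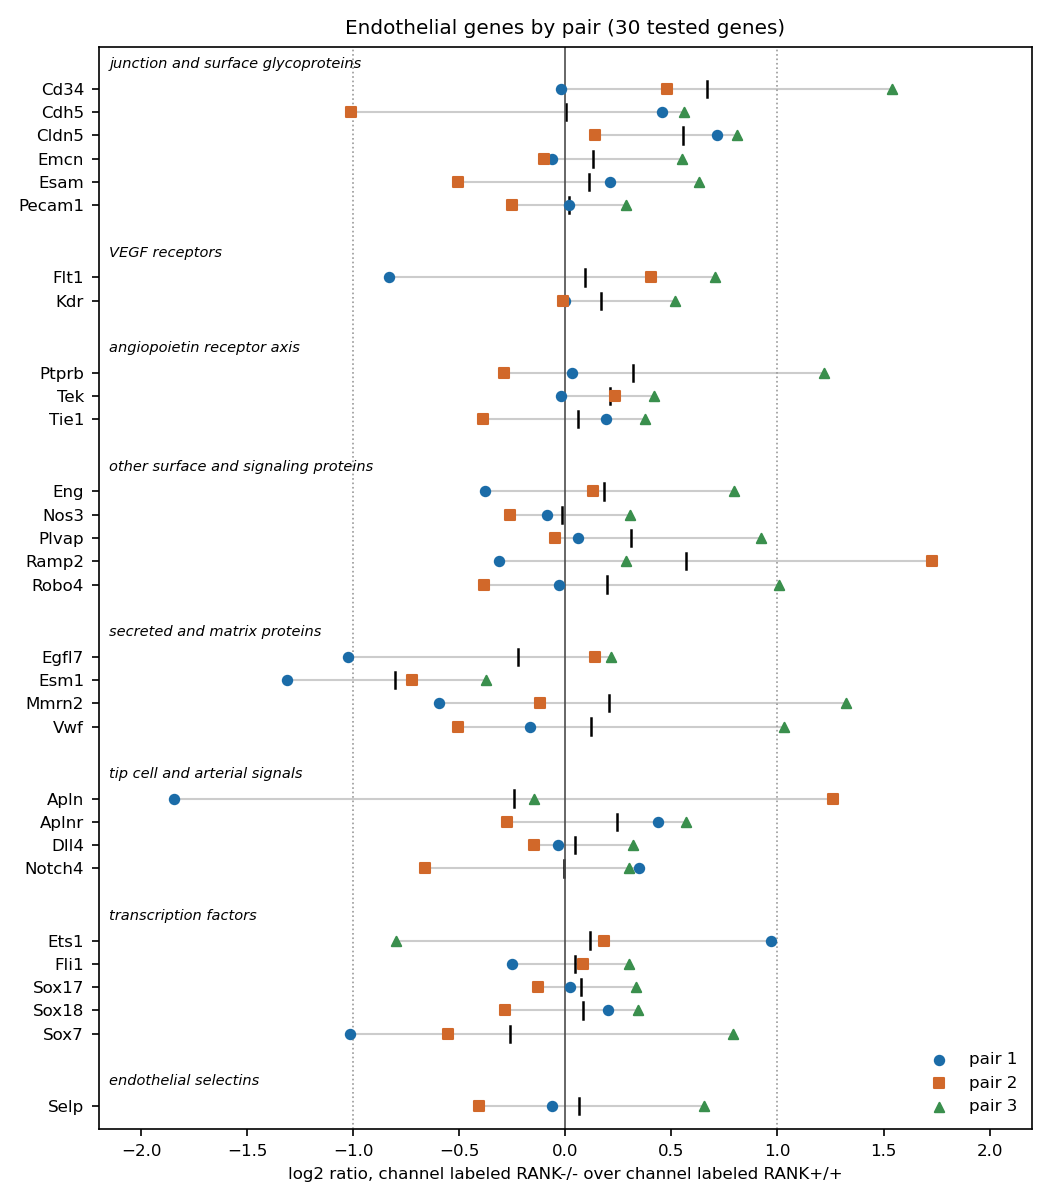
Log2 ratio of the channel labeled RANK-/- over the channel labeled RANK+/+ (horizontal axis) for the 30 tested endothelial genes, grouped by role, with a symbol for each pair, a black tick for the mean of the 3 pairs and dotted lines at 2-fold. In pair 3, 27 of the 30 genes lie to the right of 0, and the grey lines that join the pairs cross 0 for every gene but Cldn5 and Esm1.

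Levels of single RNAs were also compared. They carry the dye and array of each RNA, so they are a description. The RANK+/+ RNA of pair 3 had the lowest level of all 6 RNAs for 17 of the 30 members, and the RANK-/- RNA of the same pair was lowest for 0 and highest for 10. The RANK+/+ RNA of pair 2 was highest for 11 members. The mean log2 level of the 30 members was 8.28, 8.40 and 7.93 in the RNAs labeled RANK+/+ of pairs 1, 2 and 3, and 8.14, 8.33 and 8.46 in those labeled RANK-/-. The summed signal, in which the brightest probes such as Cd34 and Kdr weigh most, was 22014, 17393 and 12798 against 18046, 20632 and 20606. By either measure the RANK+/+ RNA of pair 3 was lowest and the ranges of the groups overlapped.

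Among the junction and surface glycoproteins, all 6 were tested and all 6 were above 0 in pair 3. Pecam1 had ratios of 0.02, -0.25 and 0.29, with a mean of 0.02 ± 0.27 (SD, n = 3 pairs) and a 95% interval of -0.44 to 0.48. Cdh5 had ratios of 0.46, -1.01 and 0.56, so that a 2-fold difference in pair 2 stood against the other pairs and the mean was 0.00 ± 0.88. Both 95% intervals span 0, and that of Cdh5 was the wider.

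Esam, an immunoglobulin-like adhesion protein of endothelial junctions, followed Cdh5 in sign with 0.21, -0.50 and 0.63. Emcn, the sialoglycoprotein endomucin, had -0.06, -0.10 and 0.55. Cd34, a sialomucin that fibroblasts and progenitor cells also carry, had -0.02, 0.48 and 1.54, the highest value of any member in pair 3, and a second probe of this gene gave -0.22, 0.78 and 0.64. Apart from Cldn5, no gene of this group kept its sign over all 3 pairs.

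Of the VEGF receptors, Kdr (VEGFR-2) had ratios of 0.00, -0.01 and 0.52 and a mean of 0.17 ± 0.30 (SD, n = 3 pairs). Its normalized log2 level was 11.21, 11.21 and 11.38 in the RNAs labeled RANK-/- and 11.21, 11.22 and 10.86 in those labeled RANK+/+, so that the RANK+/+ RNA of pair 3 stood furthest from the rest. A second, dimmer probe of Kdr gave 0.18, -0.71 and 0.98, and the probes disagreed in pair 2. Flt1 (VEGFR-1) had -0.83, 0.40 and 0.70.

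In the angiopoietin receptor axis, Tek had ratios of -0.02, 0.23 and 0.42 and a mean of 0.21 ± 0.22 (SD, n = 3 pairs). Its net signals lay between 22.8 and 42 in the 6 RNAs, below the offset of 50, and without an offset its mean ratio was 0.47. Tie1, the partner receptor of Tek, had 0.19, -0.39 and 0.37. Ptprb, a phosphatase that acts on Tek and VE-cadherin, had 0.03, -0.29 and 1.22, and its second probe gave -0.02, -0.18 and 0.34. All 3 genes were above 0 in pair 3, where the group median was 0.42, and their order in the other pairs differed.

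Of the other surface and signaling proteins, 5 of 6 were tested and 5 were above 0 in pair 3. Ramp2, the accessory protein of the adrenomedullin receptor, had ratios of -0.31, 1.73 and 0.29 and a mean of 0.57 ± 1.05 (SD, n = 3 pairs). Its normalized log2 level was 11.60 in the RANK-/- RNA of pair 2 and between 9.87 and 10.39 in the other 5 RNAs, so that a single RNA set the range. Without pair 2 the mean was -0.01. Eng (endoglin, a co-receptor for TGF-beta and BMP9) had -0.38, 0.13 and 0.80. Robo4, a guidance receptor of endothelium, had -0.03, -0.38 and 1.01. Plvap, which forms the diaphragms of fenestrae, had 0.06, -0.05 and 0.92, and its second, dimmer probe gave -0.01, -0.06 and 0.55. Nos3, the endothelial nitric oxide synthase, stayed within -0.26 and 0.31, and its second probe gave -0.10, -0.18 and 0.16.

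Among the secreted and matrix proteins, Esm1 was the only gene with 1 sign. Mmrn2, an endothelial matrix glycoprotein, had ratios of -0.60, -0.12 and 1.33 and a mean of 0.20 ± 1.00 (SD, n = 3 pairs). Its levels were 9.05, 9.51 and 10.08 in the RNAs labeled RANK-/- and 9.65, 9.62 and 8.76 in those labeled RANK+/+, with overlapping ranges. Vwf, the von Willebrand factor that endothelium and platelets hold, had -0.17, -0.51 and 1.03, and Egfl7, a secreted regulator of vessel tubes, had -1.03, 0.14 and 0.21. The group median was -0.81 in pair 1 and 0.62 in pair 3.

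Of the tip cell and arterial signals, Apln had the widest range of all tested members. The ligand apelin had ratios of -1.85, 1.26 and -0.15 and a mean of -0.24 ± 1.56 (SD, n = 3 pairs), with normalized log2 levels of 9.06, 9.57 and 8.50 in the RNAs labeled RANK-/- and 10.91, 8.31 and 8.65 in those labeled RANK+/+. The RANK+/+ RNA of pair 1 was far above the others. The receptor gene Aplnr had another sign pattern, with 0.44, -0.28 and 0.57. Dll4, the Notch ligand of tip cells, had -0.03, -0.15 and 0.32 at net signals between 19.2 and 45.8, and the endothelial Notch receptor gene Notch4 had 0.35, -0.66 and 0.30. Esm1, Apln and Dll4, which are all known from tip cells, had no common sign pattern.

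The 5 tested transcription factor genes had ratios with mixed signs. Ets1 had 0.97, 0.18 and -0.80, the lowest value of any member in pair 3, and its second probe gave 0.48, 0.92 and -0.17. Ets1 is also expressed by stromal and lymphoid cells. Fli1, an ETS factor of endothelium and blood cells, had -0.25, 0.08 and 0.30. Of the related SOX factors, Sox17 with 0.02, -0.13 and 0.33 and Sox18 with 0.20, -0.28 and 0.34 shared a sign pattern, while Sox7 had -1.01, -0.55 and 0.79. Selp, the P-selectin of endothelium and platelets, had -0.06, -0.41 and 0.66.

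A further list of 40 endothelial genes gave 31 tested genes, of which 0 passed limma, 7 were higher in all 3 pairs and 4 lower. At an unadjusted p under 0.05 it held 3 genes higher, Aqp1 (a water channel), Procr and Slco2a1, beside 1.66% of all genes, and 0 lower, beside 1.22%. Its medians were 0.34, -0.17 and 0.52 in pairs 1, 2 and 3. The 5 genes higher in all pairs with the largest mean were Acvrl1 (ALK1, a receptor for BMP9; mean 0.73), Thbd (thrombomodulin; 0.71), Procr (the endothelial protein C receptor; 0.70), Slco2a1 (a prostaglandin transporter; 0.70) and Ackr1 (a chemokine-binding receptor of venules; 0.68). Thrombomodulin and the protein C receptor act in the same anticoagulant pathway. Those lower in all pairs were Efnb2 (ephrin-B2, an arterial ligand; -0.86), its receptor gene Ephb4 (-0.32), the netrin receptor gene Unc5b (-0.30) and the connexin gene Gja5 (-0.07). The 7 of 31 higher and 4 of 31 lower stand beside 9.95% and 9.65% of all genes. Signals in this list were uneven. Over the 6 RNAs, net signals lay between 4728 and 9326 for Slco2a1, 1562.5 and 4289.5 for Ephb4, and 3.5 and 25.5 for Gja5. Those of Pecam1 lay between 52.1 and 108. Which cells of the fraction held the RNA of these genes was not tested.

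Of 20 angiogenic ligands and regulators 18 were tested and 0 passed limma. Without adjustment, 0.05 was passed by 0 genes higher (1.66% of all genes) and 1 lower, Edn1 (1.22%), and with equal sign in all pairs 1 was higher (9.95%) and 2 were lower (9.65%). Angpt1, the angiopoietin that activates Tek, was higher in all pairs, with ratios of 0.66, 2.44 and 0.33. Edn1, which encodes the vasoconstrictor endothelin-1, was lower in all pairs, with -0.44, -1.71 and -1.33. Vegfc, a ligand of the lymphatic receptor gene Flt4, was also lower in all pairs, with -0.16, -0.39 and -1.25. Vegfd, which also encodes a ligand of Flt4, had -0.57, 1.71 and 2.53, with the largest mean of this list (1.23). Vegfa, the main ligand of Kdr, had mixed signs, with 0.05, -0.32 and 0.65.

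Markers of other cells of the fraction moved between the same RNAs, and their part in the endothelial values was not tested. All 10 mural cell markers (pericytes and vascular smooth muscle) were above 0 in pair 1, 1 in pair 2 and 7 in pair 3, with medians of 0.84, -0.66 and 0.36. Their summed signal was 12175 to 17751 in the RNAs labeled RANK-/- and 6544 to 17151 in those labeled RANK+/+. The 9 fibroblast markers were above 0 in 6, 8 and 9 cases, with medians of 0.16, 0.85 and 1.94. Their summed signal was 143410 to 232762 against 51417 to 148088. In both sums the brightest probe weighed most, which was that of Acta2 for mural and that of Col1a2 for fibroblast markers. Of all genes 52.0%, 48.3% and 50.1% were above 0 in the 3 pairs. Pair 3 had the highest median for fibroblast and endothelial markers, and also for angiogenic ligands (0.33), luminal epithelial markers (0.52) and erythroid markers (1.02). It did not for mural, leukocyte, platelet, basal epithelial and adipocyte markers.

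Luminal epithelial markers had medians of 0.27, -0.67 and 0.52 over 7 genes, and basal markers -1.54, 0.02 and -0.14 over 4. Leukocyte markers were still measured, 8 of 9 passing the filter, with medians of -0.27, 0.09 and 0.08 and summed signals of 9021 to 11463 against 8607 to 28909. The highest sum, in the RANK+/+ RNA of pair 1, rested on S100a8, a neutrophil gene with a ratio of -3.99 in that pair. Without it the sums were 7474 to 10209 against 7264 to 8906, but in these Itgam, the brightest marker left, weighed most. In pair 1 Ptprc (-0.93), Csf1r (-0.65), Adgre1 (-0.28), Cd68 (-0.26) and Lyz2 (-0.11) were also below 0. Itgam (0.49) and Cd3e (0.02) were above 0 in that pair. Ptprc, which encodes CD45, was detected above background on 5 of 6 arrays for the RNAs labeled RANK-/- and on 4 of 6 for the others. Platelet markers, which matter for Vwf and Selp, had 3 of 6 genes tested, with medians of 0.13, 0.29 and 0.00 and summed signals of 309 to 413 against 286 to 637. Of erythroid markers 2 of 4 were tested, with medians of -0.13, -0.36 and 1.02, and of adipocyte markers only Cfd of 4 was tested.

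**Figure D3:**
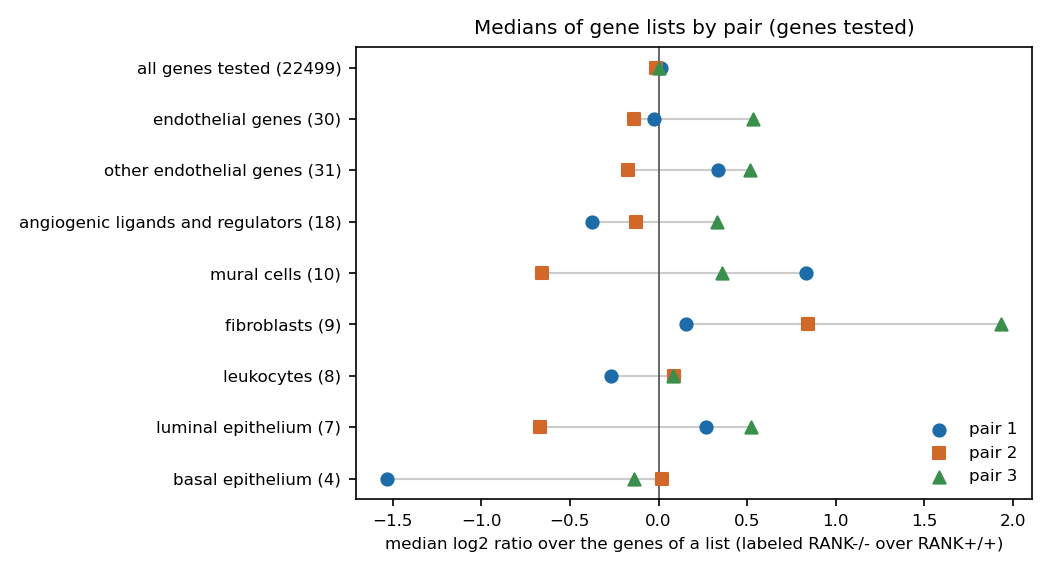
Median log2 ratio of the channel labeled RANK-/- over the channel labeled RANK+/+ (horizontal axis) for gene lists, with a symbol for each pair and the number of tested genes in brackets. Endothelial genes have medians of -0.02, -0.14 and 0.53 in pairs 1, 2 and 3, and the medians of fibroblast markers are above 0 in every pair and highest in pair 3.

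The difference between pairs kept its order under every alternative that kept the 3 pairs, with pair 3 highest and pair 2 lowest, while its size changed. The median of the members in pair 3 lay between 0.22 and 0.99 over the alternatives, and that in pair 2 between -0.32 and -0.12. When arrays were centred on the median without loess, the median of all genes moved to 0.13, -0.19 and -0.39, and 17, 5 and 22 members were above 0 in pairs 1, 2 and 3. Relative to that shift the members lay at -0.09, -0.13 and 0.62, beside -0.04, -0.12 and 0.53 with loess.

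**Figure D4:**
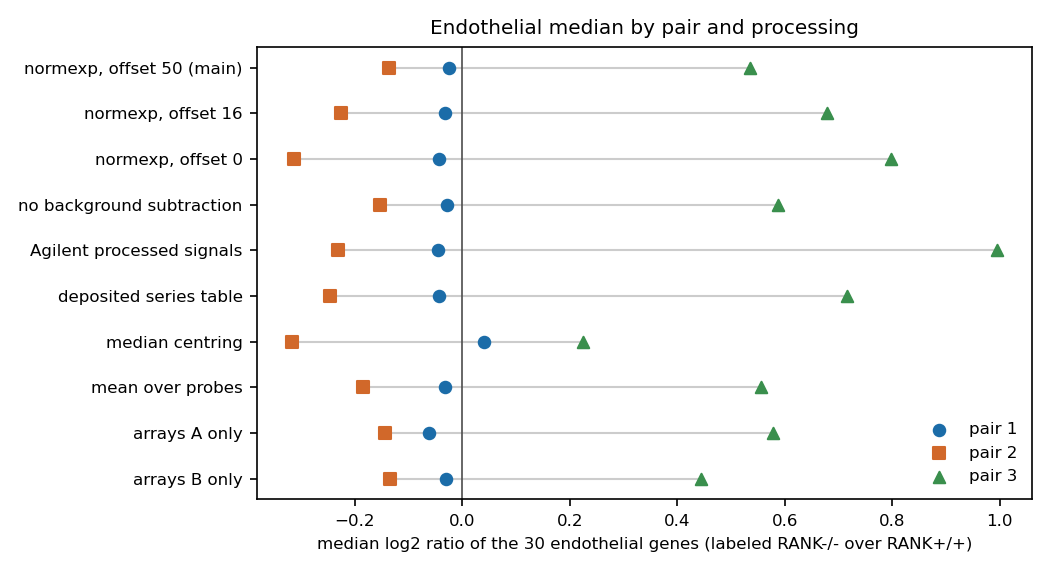
Median log2 ratio of the 30 tested endothelial genes (horizontal axis) in each pair under 10 ways of making the ratios, with a symbol for each pair. Pair 3 lies above 0 and pair 2 below 0 in every row, the largest median being 0.99 in pair 3 from Agilent's processed signals.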

How the data were processed

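Sorted CD45- cells were profiled on 6 two-color SurePrint G3 Mouse arrays. The authors extracted the scans with Agilent Feature Extraction 10.7.3.1, and the deposited scanner tables hold spot and background intensity without normalization. They also hold a deposited log10 ratio of processed signals, and the deposited series table holds log2 ratios normalized by the authors. Set against the scanner ratios, its columns ran as RANK-/- over RANK+/+ (correlations of 0.825 to 0.862, column medians of -0.00763 to 0.00732). The methods describe dye swaps, whereas arrays A and B carry the same dyes per the labels, which were followed.

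In R 4.3.3, limma 3.58.1 corrected the background of median intensities by normexp (offset 50) and normalized them by intensity loess and Aquantile. Control spots and 212 to 260 outlier spots per array were left out. Spots of a probe, then arrays A and B, were averaged. Probes were kept that Feature Extraction called well above background, for RNAs of 1 genotype, on arrays A and B of 2 pairs or more, and the brightest kept probe stood for a gene. Symbols came from RefSeq (GRCm38.p6) by accession for 28026 probes, and the grid names mm9, so no gene coordinates are given beyond those of promoters in that table. The 3 pair ratios were tested with limma (intercept only, two-sided, Benjamini-Hochberg). A sign-flip test cannot go below 0.25 with 3 pairs. The rank product named in the study's methods was an alternative with 500 draws, beside other backgrounds, normalizations, filters, arrays and fits. The functions were tested on simulated data. The number of arrays limits precision.

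Members and lists were chosen with earlier results of these data known. Values were given for every tested member, and in full for members of equal sign in all pairs, for Pecam1, Cdh5, Kdr and Tek, and for the 3 of widest range (Apln, Ramp2, Mmrn2). Of the endothelial and angiogenic lists, up to 5 genes of equal sign in all pairs were named per direction by mean. Vegfa, Vegfd, Aqp1, Acta2, Col1a2, S100a8 and the other leukocyte markers were named after their values were seen. Figures used Python 3.11.15 and matplotlib.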

Additional observations from a re-analysis of the deposited data

How the results depend on the processing

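No member passed limma under any of 20 alternatives (0 throughout, with 1 to 3 members at an unadjusted p under 0.05), and none of the other endothelial or angiogenic genes did (0). Over all genes, 13 passed with 6 arrays and the pair as a random block (correlation within pairs 0.96), which counts technical arrays as samples, and 21 passed by rank product. With the channels as 3 and 3 samples and no replicate block, 0 members passed and all means were as in the paired fit; deviations of the channels of a pair had correlations of -0.03, -0.22 and -0.04. Esm1 stayed below 0 and Cldn5 above 0 in all alternatives run, from -1.02 to -0.55 and from 0.43 to 0.93.

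The number of members higher in all pairs was 2 in place of 1 with spatial loess and with arrays A only (Cd34 and Cldn5), with Agilent's processed signals, with the deposited series table and with arrays B only (Tek and Cldn5). With median centring it was 2 (Cd34 and Tek, without Cldn5), and 2 members were lower (Egfl7 and Esm1). Members at least 2-fold apart in a pair numbered 21 with Agilent's processed signals and 5 with median centring, in place of 11. Median centring also turned the means of Pecam1 (-0.082), Cdh5 (-0.15) and Kdr (-0.048) below 0, and arrays B alone that of Cdh5 (-0.0097).

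Leaving out a pair changed most counts. Members higher in both remaining pairs numbered 2 to 11 (8 without pair 1, 11 without pair 2, 2 without pair 3) and members lower in both 1 to 10 (10 without pair 3). Members 2-fold apart numbered 6 to 9. The median of the mean ratios ranged from -0.12 without pair 3 to 0.25 without pair 2. Without pair 1 the means of Cdh5 (-0.22) and Apln (0.56) changed sign, without pair 2 that of Ramp2 (-0.012), and without pair 3 those of Pecam1 (-0.12), Cdh5 (-0.28), Kdr (-0.0068) and Mmrn2 (-0.36). The other ends of these ranges were 0.51 for Cdh5, -0.996 for Apln, 1.01 for Ramp2, 0.15 for Pecam1, 0.26 for Kdr and 0.60 for Mmrn2. The causes were not tested. Low signals limit dim members, whose ratios shrink with the offset: at offset 0 the mean of Tek was 0.47, in place of 0.21. Cldn5 and Esm1, which were not among the members with a mean net signal under 100, had means of 0.83 and -0.97 at offset 0.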
